A study of Mus musculus with 14 samples.

Results

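Of the 240778 windows of open chromatin counted in Treg cells, 72346 (30.0%) had their centre inside the body of a protein-coding gene and more than 10 kb from every protein-coding start site, and these intragenic windows are described here. They were selected by position alone, from the window coordinates (GRCm38) and the start and end of each gene, without use of any count. Because neighbouring summits gave overlapping windows of 201 bp, the 72346 windows formed 45961 separate stretches. They lay in 6091 genes, and 1328 of them were on chromosome X. For comparison, 55580 windows (23.1%) lay within 1 kb of a start site, 71851 (29.8%) lay outside genes at more than 10 kb from any start site, and the remaining 41001 (17.0%) fell into neither class.

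Accessibility was measured by ATAC-seq, in which the Tn5 transposase inserts sequencing adapters into open chromatin, in Treg cells sorted from spleen and lymph nodes of Foxp3-AID mice. From the Foxp3AID allele, Foxp3 is made as a fusion with an auxin-inducible degron, together with the ZsGreen reporter and Cre. ROSA26-TIR1(F74G) mice also carry the plant receptor TIR1, which directs the fusion protein to degradation once its ligand 5-ph-IAA is given, and ROSA26-WT mice lack it. These are called R26TIR1(F74G) and R26WT below, and all of them, controls included, carried the degron allele and received 5-ph-IAA. There were 4 R26WT and 4 R26TIR1(F74G) mice on day 3 of treatment and 3 of each on day 7, with 1 mouse per library. TIR1 and an mCherry reporter sit behind a stop cassette that Cre must remove, so that control cells were gated on ZsGreen and R26TIR1(F74G) cells on ZsGreen and mCherry. The study's text describes heterozygous Foxp3AID/WT females and cells split into resting and activated, whereas the labels give neither sex, zygosity nor activation state, and no value was computed by them. The comparisons asked whether the openness of chromatin at these positions differed between the genotypes under treatment, and whether any difference depended on the length of treatment. No library came from untreated mice. Loss of Foxp3 protein therefore cannot be told apart from the R26TIR1(F74G) genotype itself or from the mCherry gate.

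Open chromatin inside a gene and away from its start often marks enhancers, short stretches at which transcription factors bind and from which they act on a start site at a distance. Foxp3, the lineage factor of Treg cells, binds largely to enhancers that other factors, such as those of the ETS, RUNX and TCF/LEF families, have already opened. Many regulatory elements of T cell genes lie in introns, among them those of Il2ra, which encodes the alpha chain of the IL-2 receptor.

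Sequence was at hand for those windows that coincide with the start of a noncoding gene, since these starts are listed in RefSeq (GRCm38.p6) whereas only protein-coding starts were used in the selection. Of the intragenic windows, 69 in 61 host genes lay wholly inside such an entry. Their median level was 3.26 CPM (counts scaled to the normalised library size), against 1.44 CPM for all intragenic windows, and their median GC content was 53.2%, against 64.7% for the 4396 windows near protein-coding starts whose sequence was listed. Of the 4 most accessible, 3 are shown on the plus strand, with matches to the searched motifs in capitals, because they are the plainest cases of windows that are distal by the selection and yet lie at a transcription start.
Stard13, start of 1700028E10Rik, chr5:151368515-151368715: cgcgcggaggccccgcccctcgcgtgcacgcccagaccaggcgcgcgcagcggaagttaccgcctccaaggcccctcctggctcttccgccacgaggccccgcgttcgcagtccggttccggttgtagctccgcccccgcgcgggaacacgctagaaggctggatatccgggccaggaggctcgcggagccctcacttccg
Rab3ip, start of Gm51782, chr10:116913936-116914136: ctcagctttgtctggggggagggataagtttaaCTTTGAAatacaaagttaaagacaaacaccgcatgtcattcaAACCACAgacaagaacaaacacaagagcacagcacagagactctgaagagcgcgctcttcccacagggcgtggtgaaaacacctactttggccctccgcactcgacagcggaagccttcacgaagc
Mia3, start of Gm34102, chr1:183345372-183345572: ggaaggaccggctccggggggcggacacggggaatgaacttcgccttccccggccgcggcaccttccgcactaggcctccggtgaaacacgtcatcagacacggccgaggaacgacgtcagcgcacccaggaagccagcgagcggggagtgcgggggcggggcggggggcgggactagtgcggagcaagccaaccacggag

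The Stard13 window had a mean of 64.2 CPM over the 14 mice and a GC content of 73.1%, and held none of the letters searched. The Rab3ip window (36.2 CPM, GC 49.8%) held the TCF/LEF motif CTTTGAA and, read on the other strand, the RUNX motif TGTGGTT. The Mia3 window (28.2 CPM, GC 71.1%) held no searched motif. On both strands, the ETS motif AGGAAGT was present in 11 of the 69 windows (15.9%) and in 7.1% of the 4396 windows near protein-coding starts. The RUNX motif was in 5 (7.25%, against 2.21%), CTTTGAA in 5 (7.25%, against 1.80%), the GATA motif AGATAA in 6 (8.70%, against 2.66%) and the STAT motif TTCNNNGAA in 7 (10.1%, against 3.69%). The AP-1 motif TGANTCA was in 4 (5.80%, against 2.93%), the E-boxes CAGCTG and CAGGTG in 11 and 10 (15.9% and 14.5%, against 9.55% and 12.1%), and the forkhead motif TGTTTAC in 2 (2.90%, against 1.43%). As a ratio of the shares, the CAGGTG E-box was the most alike in both classes. A match describes letters and not a bound site, and the classes differ in GC content.

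Between 5653289 and 20184487 reads per library were counted in all windows, and R26TIR1(F74G) replicate 1 of day 3 and R26WT replicate 3 of day 7 (6348754) were the shallowest. Start sites of Treg markers were open, with 20.9 CPM at Ikzf2, 15.2 at Ctla4 and 13.2 at Il2ra in the most accessible window within 1 kb, although no window was counted within 1 kb of the Foxp3 start. By the same measure the T cell markers Cd3e and Cd4 had 11.2 and 4.55 CPM. Degradation acts on Foxp3 protein, so that no window tells whether it took place. Of 5 B cell markers only Ebf1 had a window at its start, with a summed level of 1.60 to 5.55 CPM over all mice, and of 5 myeloid markers 3 had one (9.00 to 11.7 CPM). Windows also lay at the starts of the CD8 T cell markers Cd8b1 (5 windows, 12.5 CPM in the most accessible) and Cd8a (1 window, 1.33 CPM) and of Eomes (8 windows, 5.33 CPM in the most accessible), a factor of NK and CD8 T cells. Per mouse, the 2 CD8 markers summed to 11.3 to 15.5 CPM, and Eomes had 4.26 to 5.97. No window lay at the starts of Cd79a, Ms4a1, Pax5, Lyz2, Csf1r, Ncr1 or Klrb1c. The part of other cells in the results was not tested.

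The intragenic windows were mostly shallow. Their median level was 1.44 CPM (quartiles 1.03 and 2.50), close to that of the windows far outside genes (1.41 CPM) and below that of windows near start sites (4.32 CPM). All windows have one length, so that these levels compare directly. An average of 50 or more counts per library was reached by 16.0% of them, against 57.4% near start sites, and 350 (0.484%) had 20 CPM or more. The spread between mice followed the level. The median SD of log2 CPM within groups was 0.304, against 0.226 near start sites. At a given level the 3 classes were close, with 0.322, 0.312 and 0.326 for windows of 1 to 2 CPM (intragenic, near start sites and far outside genes) and 0.172, 0.158 and 0.165 from 20 CPM upward. The median distance to the nearest protein-coding start site was 36.3 kb (quartiles 19.5 and 74.5 kb). For 20013 windows (27.7%) that site belonged to a gene other than the host, so that assignment of a window to its host gene is positional only. The windows spread over the host genes with 16.9%, 26.8%, 28.0% and 28.3% in 4 equal parts of each gene from its 5′ end, the first of which is most often removed by the distance rule. Levels did not jump at the 10 kb limit, since the 2247 windows from 10 to 11 kb had a median of 1.57 CPM and the 2273 windows from 9 to 10 kb a median of 1.55 CPM.

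Genes differed widely in how many of these windows they held. Among 9113 genes with at least 10 kb of sequence beyond the 10 kb limit, 5519 (60.6%) held 1 or more and 3594 held none. The median over all of them was 3.59 windows per 100 kb of such sequence, and 10% of genes exceeded 35.9. By number, with overlapping windows each counted, Fhit came first with 302 windows, in a gene of 1612 kb. It was followed by Foxp1 (245), a forkhead factor that keeps naive T cells quiescent, and by Bach2 (188), a repressor of effector genes in T cells. Wwox held 186, the cAMP phosphodiesterase gene Pde4d 183, the exchange factor and kinase anchor gene Akap13 176, Inpp4b, a phosphoinositide phosphatase gene, 145, Ldlrad4 137, and the genes of the nuclear factors Tox and Rora 130 each. Counted as 1 window for each overlapping run, Foxp1 (151) came before Fhit (132) among these 10, and Pde4d (118) before Wwox (112). Per length, again with overlapping windows each counted, the order was another one. Akap13 (60.9 windows per 100 kb) and Bach2 (59.2) were the densest of these 10, and Pde4d (14.2), Rora (18.0) and Fhit (19.1) were among the sparsest.

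Lists of T cell genes had median densities above that of all genes, and long neuronal genes lay below it. Of 48 genes in a list of T cell transcription factors, 39 held 1660 windows, with a median of 39.8 per 100 kb among those with at least 10 kb of eligible sequence. Tcf7, which encodes TCF1, stood highest with 23 windows in 26.1 kb (88.2 per 100 kb). Among receptor and surface genes (17 of 28 with windows, 323 windows, median 37.1 per 100 kb), Il21r (18 windows, 85.8 per 100 kb) and Il2ra (31 windows, 76.7 per 100 kb) were the densest. T cell receptor signalling genes had a median of 33.1 per 100 kb (24 of 32 genes, 869 windows), and Cd247, which encodes the zeta chain of the receptor complex, reached 77.3 with 56 windows. Chromatin regulators had a median of 23.5 per 100 kb (23 of 25 genes, 786 windows), cAMP and phosphoinositide genes 18.6 (13 of 14, 711 windows), and adhesion and cytoskeleton genes 15.8 (20 of 27, 503 windows).

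Among lists for other cell types, B cell genes had a median of 12.8 per 100 kb (8 of 12 genes, 92 windows) and myeloid genes 19.1 (4 of 10, 39 windows), both above that of all genes and the latter also above adhesion and cAMP genes. Of 9 cytotoxic cell genes 0 had 10 kb of eligible sequence, so that the list has no density, and Cd8b1 held its 3 windows. Long neuronal genes had a median of 0.638 per 100 kb (14 of 18 genes, 278 windows), below the median over all genes. The windows also differed in level. Their median was 1.90 CPM in transcription factor genes, 2.12 in receptor genes and 1.89 in T cell receptor signalling genes, and 0.938 in neuronal genes. Within lists the density varied widely, from 88.2 (Tcf7) to 0 (Cbfb, Myb and Stat5a) among the transcription factors and from 85.8 (Il21r) to 0 (Il4ra and Il7r) among the receptors, as the plot of densities by list shows.

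**Figure D1:**
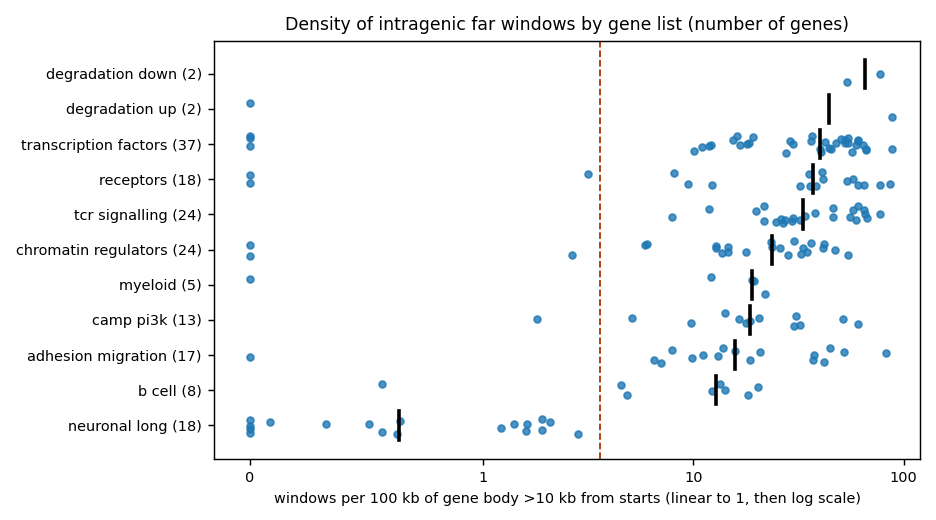
Density of intragenic far windows by gene list. Each point is a gene with at least 10 kb of eligible sequence, the x axis is windows per 100 kb of that sequence (linear to 1, logarithmic beyond), the bars are list medians and the dashed line is the median over all genes (3.59 per 100 kb). Medians of the T cell lists lie to the right of the line, although some of their genes lie to its left, and all long neuronal genes lie to its left.

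At the level of whole libraries, intragenic far windows held 16.6% to 18.6% of the counts of each mouse (median 17.0%). On day 3 the shares were 17.4%, 17.3%, 16.7% and 16.6% in R26WT mice and 17.7%, 16.7%, 18.6% and 17.6% in R26TIR1(F74G) mice. On day 7 they were 16.8%, 16.7% and 18.2% in R26WT and 16.7%, 17.4% and 16.7% in R26TIR1(F74G) mice. The groups overlapped on both days, and the highest share of each day was in R26TIR1(F74G) replicate 3 on day 3 and in R26WT replicate 3 on day 7. Group means were 17.0% ± 0.40 and 17.7% ± 0.76 on day 3 (SD, n = 4) and 17.2% ± 0.83 and 17.0% ± 0.39 on day 7 (SD, n = 3), R26WT first. In exact two-sided permutation tests the difference was 0.68 percentage points on day 3 (p = 0.143, smallest possible 0.0286) and -0.25 on day 7 (p = 0.8, smallest possible 0.1). With days as strata it was 0.28 (exact permutation p = 0.444, smallest possible 0.00143), and none of the 18 such tests over 3 classes of windows had an adjusted p under 0.6. The day 7 difference turned to 0.23 without R26WT replicate 3. The share near start sites moved the other way, from 48.4% to 53.0%, and the mice with most counts in intragenic windows, R26TIR1(F74G) replicate 3 of day 3 and R26WT replicate 3 of day 7, had the fewest there (48.4% each).

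**Figure D2:**
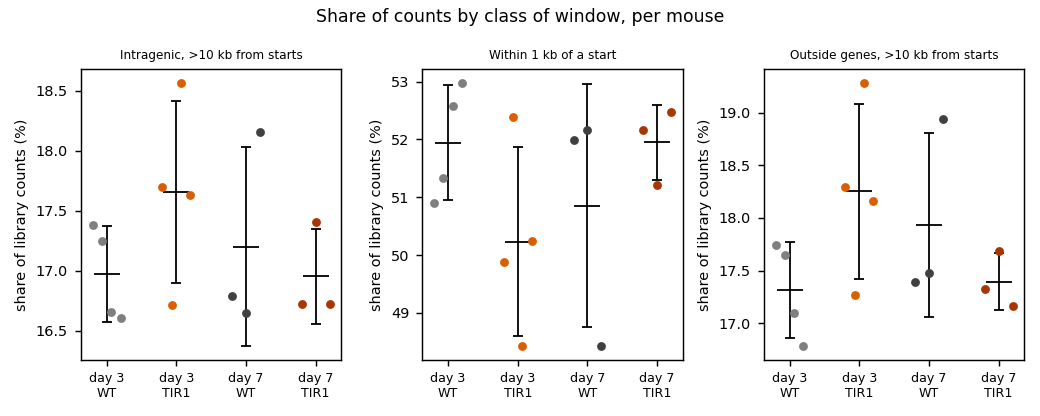
Share of each library's window counts (%) in intragenic far windows, in windows within 1 kb of a start site and in far windows outside genes. Points are mice, horizontal lines and bars are mean ± SD of 4 (day 3) or 3 (day 7) mice, and the axes do not start at 0. Groups overlap, and mice with a low share near start sites have high shares in the other 2 classes.

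On day 7, between 3 and 3 mice, 3 of 71347 intragenic windows tested passed an adjusted p of 0.05 in edgeR's quasi-likelihood test, 1 of them higher and 2 lower in R26TIR1(F74G) mice. Over all windows of the series the share past the threshold was 0.00463%. An unadjusted p under 0.05 was reached by 4166 (5.84%), and DESeq2 called 0 windows, with 1729 at an unadjusted p under 0.05. The values of the R26TIR1(F74G) and R26WT mice did not overlap in 8133 windows (4121 higher and 4012 lower, 11.4%), against 11.8% of all windows. In the 11598 intragenic windows that averaged 50 or more counts, the central 95% of log2 fold changes ran from -0.42 to 0.46, and the median over all those tested was -0.01.

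The windows past the threshold on day 7 lay in Mocos and Ptk2b. Mocos, whose product sulfurates the molybdenum cofactor, held a pair of overlapping windows 19.3 kb from its start. The one at chr18:24672722-24672923 had 10.9, 8.61 and 13.0 CPM in R26WT mice and 5.13, 6.02 and 4.91 in R26TIR1(F74G) mice, and on day 3 it had 7.79, 8.14, 6.01 and 5.61 in R26WT and 10.6, 4.29, 8.27 and 7.56 in R26TIR1(F74G) mice. The groups were apart on day 7 and overlapped on day 3. In bulk libraries, a window open in fewer cells and a window less open in each cell cannot be told apart. It fell by 0.98 on the log2 scale on day 7 (SE 0.17, adjusted p = 0.0433 from edgeR) and had a log2 difference of 0.09 on day 3. Its neighbour fell by 0.97 (SE 0.17, adjusted p = 0.0433). In Ptk2b, which encodes the calcium-regulated kinase Pyk2, the window at chr14:66234464-66234665 lies 46536 bp from the start. It had 5.10, 5.87 and 3.75 CPM in R26WT mice on day 7 and 9.84, 7.39 and 13.7 in R26TIR1(F74G) mice, whereas on day 3 the values were 8.83, 5.89, 9.97 and 9.80 in R26WT and 7.19, 8.91, 5.07 and 7.08 in R26TIR1(F74G) mice. It rose by 1.02 on day 7 (SE 0.19, adjusted p = 0.0491) and had a log2 difference of -0.28 on day 3. Its interaction of day and genotype was 1.3 (SE 0.27) with an adjusted p of 0.335 in edgeR, so that a difference between the days did not pass the test. Each of these windows passed in 2 of the 6 fits that left out 1 mouse, and without R26TIR1(F74G) replicate 3 no intragenic window did. Without R26WT replicate 1 the number was 7, without R26WT replicate 2 it was 9 and without R26TIR1(F74G) replicate 2 it was 5, of which 1, 3 and 2 were among the original 3.

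On day 3, between 4 and 4 mice, 0 of 70308 intragenic windows passed in edgeR (0.0% of all windows tested) and 0 in DESeq2. An unadjusted p under 0.05 was reached by 4849 (6.90%) in edgeR and 2937 in DESeq2. The groups were apart in 2734 windows, 1589 higher and 1145 lower in R26TIR1(F74G) mice (3.89%, against 4.1% of all windows). In those that averaged 50 or more counts, the central 95% of log2 fold changes ran from -0.43 to 0.35. The smallest p-values belonged to windows in Zfhx3 (log2 difference 1.12, SE 0.22), the Hedgehog coreceptor gene Boc (1.90, SE 0.38) and Tenm1 (1.82, SE 0.37), each with an adjusted p of 0.213. In the Boc window R26TIR1(F74G) replicate 2 had 5.15 CPM, against 0.360 to 1.57 in the other 3 mice of its group, and without it the difference was 0.96. Leaving out R26TIR1(F74G) replicate 1 or replicate 2 gave 5 windows each, and leaving out replicate 3 gave 1.

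With the days combined (7 mice against 7, day fitted as a covariate), 10 of 72346 intragenic windows passed in edgeR, in 9 separate stretches. In R26TIR1(F74G) mice 7 of them were higher and 3 lower, a balance that turned under other settings, with 14 of 36 higher in DESeq2, 17 of 38 with the share of counts near start sites as a term and 9 of 36 without the 2 shallowest libraries. The share past the threshold over all windows was 0.0112%. In 86 intragenic windows (0.119%) no R26WT mouse overlapped any R26TIR1(F74G) mouse over both days, against 0.116% of all windows. An unadjusted p under 0.05 was reached by 4718 (6.52%), the central 95% of log2 fold changes ran from -0.33 to 0.29 where counts averaged 50 or more, and 4 of the 10 were among the 36 called by DESeq2. With the prefix of the mouse name (AC or E) as a term, 4 of the 10 and 0 of the 3 day 7 windows passed. Names with E belonged to 3 of 7 R26TIR1(F74G) and 1 of 7 R26WT mice, and on day 7 to 1 of 3 and 0 of 3. None of the 10 passed within a single day, where fewer mice were compared. Leaving out each mouse in turn gave between 1 and 17, namely 1 when R26WT replicate 4 of day 3 or R26WT replicate 2 of day 7 was omitted and 17 without R26TIR1(F74G) replicate 1 of day 3. The count also fell to 2 without R26WT replicate 1 of day 3, to 4 without R26WT replicate 2 of day 3 or R26TIR1(F74G) replicate 1 of day 7, to 3 without R26TIR1(F74G) replicate 3 or 4 of day 3 or replicate 2 of day 7, and to 5 without R26TIR1(F74G) replicate 3 of day 7.

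The windows that rose lay in Arhgap17, Arhgef6, Tspan14, Kat6b and Spata13. The smallest adjusted p was in Arhgap17, which encodes a GTPase-activating protein, at chr7:123354919-123355120, 14929 bp from the start of the gene. It had 2.60, 2.78, 3.14 and 3.01 CPM in R26WT mice on day 3 and 2.58, 2.44 and 1.80 on day 7, and 5.04, 4.88, 6.26 and 5.07 in R26TIR1(F74G) mice on day 3 and 4.71, 4.71 and 4.96 on day 7. Every R26TIR1(F74G) mouse was above every R26WT mouse. The log2 fold change was 0.94 (SE 0.14, adjusted p = 0.00129 from edgeR), with 0.88 on day 3 and 1.02 on day 7. Of 23 alternatives the window passed under the 22 that gave it an adjusted p, the 14 fits without 1 mouse included. The remaining alternative, DESeq2, gave it no adjusted p and did not call it.

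Arhgef6, an X-linked gene for an exchange factor of Rac and Cdc42, held 2 of these windows, both nearer to the start of Cd40lg than to its own. At chrX:57253411-57253612, 85247 bp from the Arhgef6 start and 41368 bp from that of Cd40lg, R26WT mice had 2.42, 3.18, 2.19 and 2.07 CPM on day 3 and 3.23, 2.04 and 2.85 on day 7. R26TIR1(F74G) mice had 4.14, 4.13, 6.41 and 4.34 on day 3 and 4.38, 5.07 and 4.35 on day 7, again with no overlap between genotypes. This window rose by 0.88 (SE 0.15, adjusted p = 0.0114) and passed in 11 of 14 fits without 1 mouse. Its neighbour at chrX:57253722-57253923, which does not overlap it, rose by 0.66 (SE 0.13, adjusted p = 0.0462), with 2.70 to 4.30 CPM in R26WT and 4.67 to 7.51 in R26TIR1(F74G) mice, and passed in 1 of the 14. This neighbour and the Tspan14 window at chr14:40930153-40930354 lay beyond the 5 largest changes and were named after their values were seen.

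Tspan14 encodes a tetraspanin that pairs with the protease ADAM10, and a pair of overlapping windows there rose. At chr14:40930053-40930254, 36920 bp from the start, R26WT mice had 6.58, 8.40, 7.92 and 5.72 CPM on day 3 and 10.4, 5.81 and 6.60 on day 7, and R26TIR1(F74G) mice had 16.7, 9.66, 12.2 and 11.5 on day 3 and 10.3, 12.0 and 12.3 on day 7. One R26WT mouse of day 7 lay within the R26TIR1(F74G) range. The log2 fold change was 0.68 (SE 0.12, adjusted p = 0.0217), and that of the overlapping window was 0.67 (SE 0.11, adjusted p = 0.0114), with 6.06 to 9.82 CPM in R26WT and 10.5 to 17.1 in R26TIR1(F74G) mice. They passed in 9 and 11 of 14 fits without 1 mouse.

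In Kat6b, a histone acetyltransferase gene, the window at chr14:21636636-21636837 lies 137520 bp from the start. It had 1.13, 0.992, 1.02 and 1.53 CPM in R26WT mice on day 3 and 0.969, 1.45 and 1.50 on day 7, and 2.52, 1.93, 3.28 and 2.41 in R26TIR1(F74G) mice on day 3 and 2.30, 2.86 and 2.02 on day 7. The genotypes did not overlap. It rose by 1.00 (SE 0.20, adjusted p = 0.0429) and passed in 3 of 14 fits without 1 mouse. Spata13 encodes Asef2, an exchange factor for Rac and Cdc42, and its window at chr14:60666299-60666500 had 0.519, 0.926, 1.64 and 1.48 CPM in R26WT mice on day 3 and 1.68, 1.28 and 0.750 on day 7. R26TIR1(F74G) mice had 4.32, 1.93, 2.24 and 2.98 on day 3 and 2.19, 2.44 and 2.78 on day 7, above all R26WT mice. This window, 181231 bp into the gene, rose by 1.05 (SE 0.21, adjusted p = 0.0462) and passed in 3 of 14.

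The windows that fell lay in Def6, Cbx7 and Rere. Def6 encodes an exchange factor that acts below the T cell receptor, and its window at chr17:28217707-28217908 lies 10029 bp from the nearest start, just inside the limit of selection. It was the most accessible of the 10, with 22.9, 26.6, 20.8 and 28.1 CPM in R26WT mice on day 3 and 27.9, 29.3 and 25.6 on day 7, against 21.8, 17.7, 16.8 and 16.7 in R26TIR1(F74G) mice on day 3 and 17.6, 19.7 and 23.1 on day 7. The genotypes overlapped within 20.8 to 23.1 CPM. It fell by 0.46 (SE 0.09, adjusted p = 0.0462), by the same amount on day 3 and on day 7, and passed in 4 of 14 fits without 1 mouse.

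Cbx7 encodes a chromobox subunit of polycomb repressive complex 1, and its window at chr15:79956550-79956751, 14493 bp from the start, had 7.45, 8.53, 7.17 and 6.49 CPM in R26WT mice on day 3 and 5.94, 6.92 and 9.00 on day 7. R26TIR1(F74G) mice had 5.40, 5.53, 4.99 and 4.58 on day 3 and 4.12, 4.53 and 4.05 on day 7, below all R26WT mice. It fell by 0.62 (SE 0.12, adjusted p = 0.0429) and passed in 4 of 14. In Rere, which encodes a nuclear receptor coregulator, the window at chr4:150558108-150558309 lies 276697 bp from the start. Its values were 9.00, 11.1, 7.85 and 13.8 CPM in R26WT mice on day 3 and 11.6, 10.6 and 11.8 on day 7, and 7.73, 7.56, 7.68 and 6.92 in R26TIR1(F74G) mice on day 3 and 6.15, 8.52 and 6.68 on day 7. A single R26WT mouse, replicate 3 of day 3, lay within the R26TIR1(F74G) range. It fell by 0.57 (SE 0.11, adjusted p = 0.0462) and passed in 2 of 14.

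**Figure D3:**
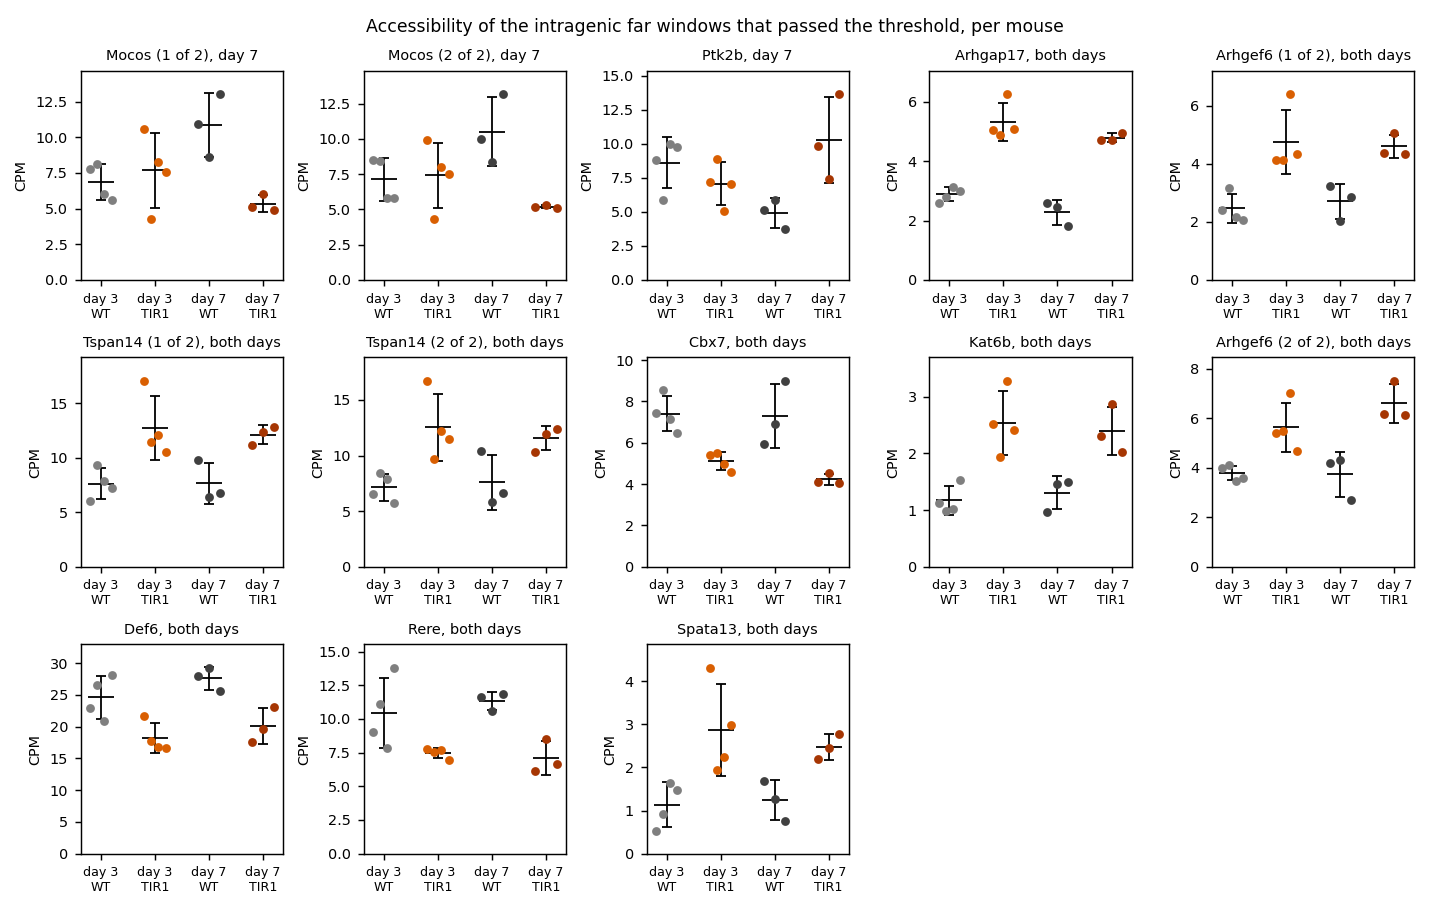
CPM per mouse in the 13 intragenic far windows past the threshold on day 7 (Mocos, Ptk2b) or over both days (all others). Each panel is 1 window, points are mice by genotype and day, and lines with bars are mean ± SD (n = 4 on day 3, n = 3 on day 7). Arhgap17, Arhgef6, Kat6b, Spata13, Cbx7 and the Tspan14 window at chr14:40930153-40930354 show no overlap between genotypes. Mocos and Ptk2b show none on day 7 and overlap on day 3.

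The day 3 difference of single windows was small and varied with distance and level. On day 3 the median log2 fold change was 0.03 over the intragenic windows, -0.06 near start sites and 0.07 in far windows outside genes. By distance to the nearest start site it was -0.01 at 10 to 20 kb (18795 windows), 0.01 at 20 to 50 kb (26250), 0.05 at 50 to 100 kb (14782), 0.09 at 100 to 200 kb (8394) and 0.21 beyond 200 kb (4125). Medians on day 7 stayed between -0.01 and 0.00 in all of these bins.

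The windows beyond 200 kb were also the least accessible, with a median of 1.16 CPM against 1.50 at 10 to 20 kb. Within windows of 1 to 2 CPM the day 3 median still went from 0.03 at 10 to 20 kb to 0.26 beyond 200 kb, and within windows of 5 CPM or more from -0.08 to -0.01. Per mouse, the median level beyond 200 kb was 1.3, 1.13, 1.09 and 1.00 CPM in R26WT mice and 1.26, 1.23, 1.49 and 1.37 CPM in R26TIR1(F74G) mice on day 3. On day 7 it was 1.10, 1.16 and 1.35 CPM in R26WT and 1.18, 1.19 and 1.11 CPM in R26TIR1(F74G) mice. The genotypes overlapped on both days, and the highest medians belonged to the mice with the lowest share of counts near start sites on each day, R26TIR1(F74G) replicate 3 on day 3 and R26WT replicate 3 on day 7. With that share as a term the day 3 median beyond 200 kb was 0.09, and without R26TIR1(F74G) replicate 3 it was 0.15. It was 0.10 when only windows averaging 50 or more counts were fitted. Scaled to total counts, the medians at 10 to 20 kb and beyond 200 kb were 0.05 and 0.26, so that the sign nearest to start sites depended on the scaling. On chromosome X the day 3 median was 0.09, against 0.03 on autosomes.

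**Figure D4:**
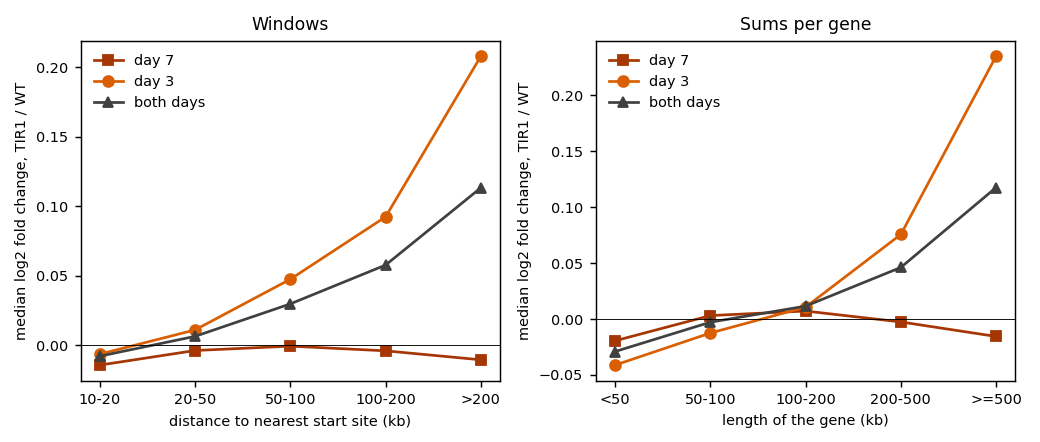
Median log2 fold change (R26TIR1(F74G) against R26WT) for day 7, day 3 and the days combined. Left, single windows by distance to the nearest protein-coding start site (kb); right, sums per gene by gene length (kb). Day 3 medians rise from -0.01 to 0.21 with distance and from -0.04 to 0.24 with length, while those of day 7 stay near 0.

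To gain depth, counts of the intragenic windows were summed per host gene, with 1 window for each overlapping run, which gave 6029 genes. Sums show relative accessibility within a gene and are not compared between genes. On day 7, 1 of 6015 genes passed in edgeR's quasi-likelihood test (0.0166%), and 375 (6.23%) had an unadjusted p under 0.05. On day 3, 6 of 6001 passed (0.1%, 4 higher and 2 lower in R26TIR1(F74G) mice), with 769 (12.8%) at an unadjusted p under 0.05. Over both days 12 of 6029 passed (0.199%, 7 higher and 5 lower), with 636 (10.5%) at an unadjusted p under 0.05. These numbers moved strongly with single mice. The day 7 count was 0 without R26TIR1(F74G) replicate 3, 2 when R26WT replicate 1 was omitted and 3 without R26TIR1(F74G) replicate 2. The day 3 count was 0 when R26WT replicate 3 was omitted and 68 without R26TIR1(F74G) replicate 1, the shallowest library, and it was 19 without R26WT replicate 1, 20 without R26TIR1(F74G) replicate 2, 2 without R26WT replicate 4 or R26TIR1(F74G) replicate 3 and 1 without R26TIR1(F74G) replicate 4. Over both days it was 0 without R26TIR1(F74G) replicate 2 of day 7, 5 without R26TIR1(F74G) replicate 4 of day 3, R26WT replicate 2 of day 7 or R26TIR1(F74G) replicate 1 of day 7, 6 without R26WT replicate 2 of day 3, 7 without R26WT replicate 3 or 4 or R26TIR1(F74G) replicate 3 of day 3, and 8 to 10 without any other mouse.

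Mettl9, which encodes a histidine methyltransferase, was the gene past the threshold on day 7 and also passed over both days. Its 6 windows, 1 for each run, summed to 19.9, 22.4, 23.2 and 21.2 CPM in R26WT mice on day 3 and 19.0, 16.5 and 11.4 on day 7, and to 29.0, 26.3, 26.5 and 24.2 in R26TIR1(F74G) mice on day 3 and 24.5, 30.6 and 27.6 on day 7. Every R26TIR1(F74G) mouse was above every R26WT mouse. It rose by 0.81 on day 7 (SE 0.14, adjusted p = 0.0220) and by 0.50 over both days (SE 0.10, adjusted p = 0.0191), and passed in 3 of 6 and 12 of 14 fits without 1 mouse.

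On day 3 the genes that rose were Boc, Arhgap24, Tmprss15 and Dgki, and those that fell were Rgs10 and Ubxn11. Boc encodes a coreceptor of Hedgehog signalling. Its 7 windows summed to 7.19, 6.75, 5.67 and 6.73 CPM in R26WT and 8.99, 14.1, 13.8 and 11.6 in R26TIR1(F74G) mice on day 3, with no overlap, whereas the day 7 values of 6.07, 8.90 and 10.9 in R26WT and 9.20, 9.00 and 5.36 in R26TIR1(F74G) mice overlapped. It rose by 0.91 (SE 0.15, adjusted p = 0.00672) and passed in 7 of 8 fits without 1 mouse. Rgs10, a regulator of G protein signalling, had 134, 131, 126 and 144 CPM in its 21 windows in R26WT and 123, 84.9, 110 and 93.4 in R26TIR1(F74G) mice on day 3. All R26TIR1(F74G) values were below the R26WT values. It fell by 0.41 (SE 0.08, adjusted p = 0.0176) and passed in 5 of 8.

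The others passed in 3 of 8 fits each. Arhgap24, which encodes the Rac-directed GTPase-activating protein FilGAP, rose by 0.49 (SE 0.10, adjusted p = 0.0260) over its 22 windows. Tmprss15, the gene of the gut protease enteropeptidase, rose by 0.77 (SE 0.16, adjusted p = 0.0274), and Dgki, a diacylglycerol kinase gene, by 0.58 (SE 0.12, adjusted p = 0.0309). Ubxn11 fell by 0.47 on day 3 (SE 0.10, adjusted p = 0.0309) and by 0.34 over both days (SE 0.07, adjusted p = 0.0383), where it passed in 3 of 14 fits. The genotypes were apart on day 3 in these 4 genes and overlapped on day 7, in Ubxn11 only between 29.8 and 30.0 CPM.

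Csk, Smad3, Def6, Tcea3 and Ubxn11 fell over both days. Csk encodes the kinase that restrains Lck, and its 2 windows summed to 13.4, 15.9, 11.7 and 14.5 CPM in R26WT mice on day 3 and 15.3, 12.4 and 21.0 on day 7, and to 11.2, 8.58, 10.1 and 8.12 in R26TIR1(F74G) mice on day 3 and 11.2, 12.2 and 10.7 on day 7. The genotypes overlapped only between 11.7 and 12.2 CPM, and Csk fell by 0.52 (SE 0.10, adjusted p = 0.0191), passing in 10 of 14 fits without 1 mouse. Smad3, a mediator of TGF-β signalling, had 145, 134, 122 and 132 CPM in its 25 windows in R26WT mice on day 3 and 134, 121 and 122 on day 7, against 119, 99.0, 117 and 118 in R26TIR1(F74G) mice on day 3 and 97.9, 109 and 108 on day 7. The change was small but without overlap, a fall of 0.25 (SE 0.05, adjusted p = 0.0299), and it passed in 6 of 14.

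Def6, whose single window is described above, also fell as a sum of 3 windows, by 0.37 (SE 0.07, adjusted p = 0.0212), a value that rests largely on that window. The sum passed in 7 of 14 fits without 1 mouse. Dusp4, a gene for a phosphatase of MAP kinases, had 6.06, 5.82, 5.74 and 4.96 CPM in its 2 windows in R26WT mice on day 3 and 7.49, 6.45 and 5.10 on day 7, and 8.09, 7.62, 7.16 and 8.37 in R26TIR1(F74G) mice on day 3 and 10.2, 9.12 and 9.00 on day 7. The genotypes were apart within each day and overlapped across days. Dusp4 rose by 0.51 (SE 0.11, adjusted p = 0.0383) and passed in 3 of 14. Tcea3, an elongation factor gene, fell by 0.39 (SE 0.09, adjusted p = 0.0383), with 13.4 to 15.7 CPM in R26WT and 10.2 to 12.2 in R26TIR1(F74G) mice. It passed in only 1 of 14 fits without 1 mouse.

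Among the genes that rose over both days, Zmat4, Ctnnd2, Gabrb1 and Pcca were longer than 200 kb. Zmat4 (416 kb, 14 windows) rose by 0.58 (SE 0.11), with 7.74 to 11.4 CPM in R26WT and 11.2 to 17.4 in R26TIR1(F74G) mice. Ctnnd2, which encodes the neuronal protein delta-catenin (31 windows), rose by 0.40 (SE 0.08) and Gabrb1, a subunit of the GABA-A receptor (54 windows), by 0.33 (SE 0.06), each with an adjusted p of 0.0191 as for Zmat4. Gabrb1 had 43.5 to 52.5 CPM in R26WT and 54.0 to 72.9 in R26TIR1(F74G) mice. Aebp2, an accessory subunit of polycomb repressive complex 2, rose by 0.46 (SE 0.10, adjusted p = 0.0383) and Pcca, a mitochondrial carboxylase gene, by 0.26 (SE 0.06, adjusted p = 0.0397). Aebp2 passed in 4 and Pcca in 3 of 14 fits without 1 mouse. Zmat4 and Gabrb1 each passed in 13 of 14 such fits and Ctnnd2 in 12, and all of these genes lost their call without R26TIR1(F74G) replicate 2 of day 7.

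**Figure D5:**
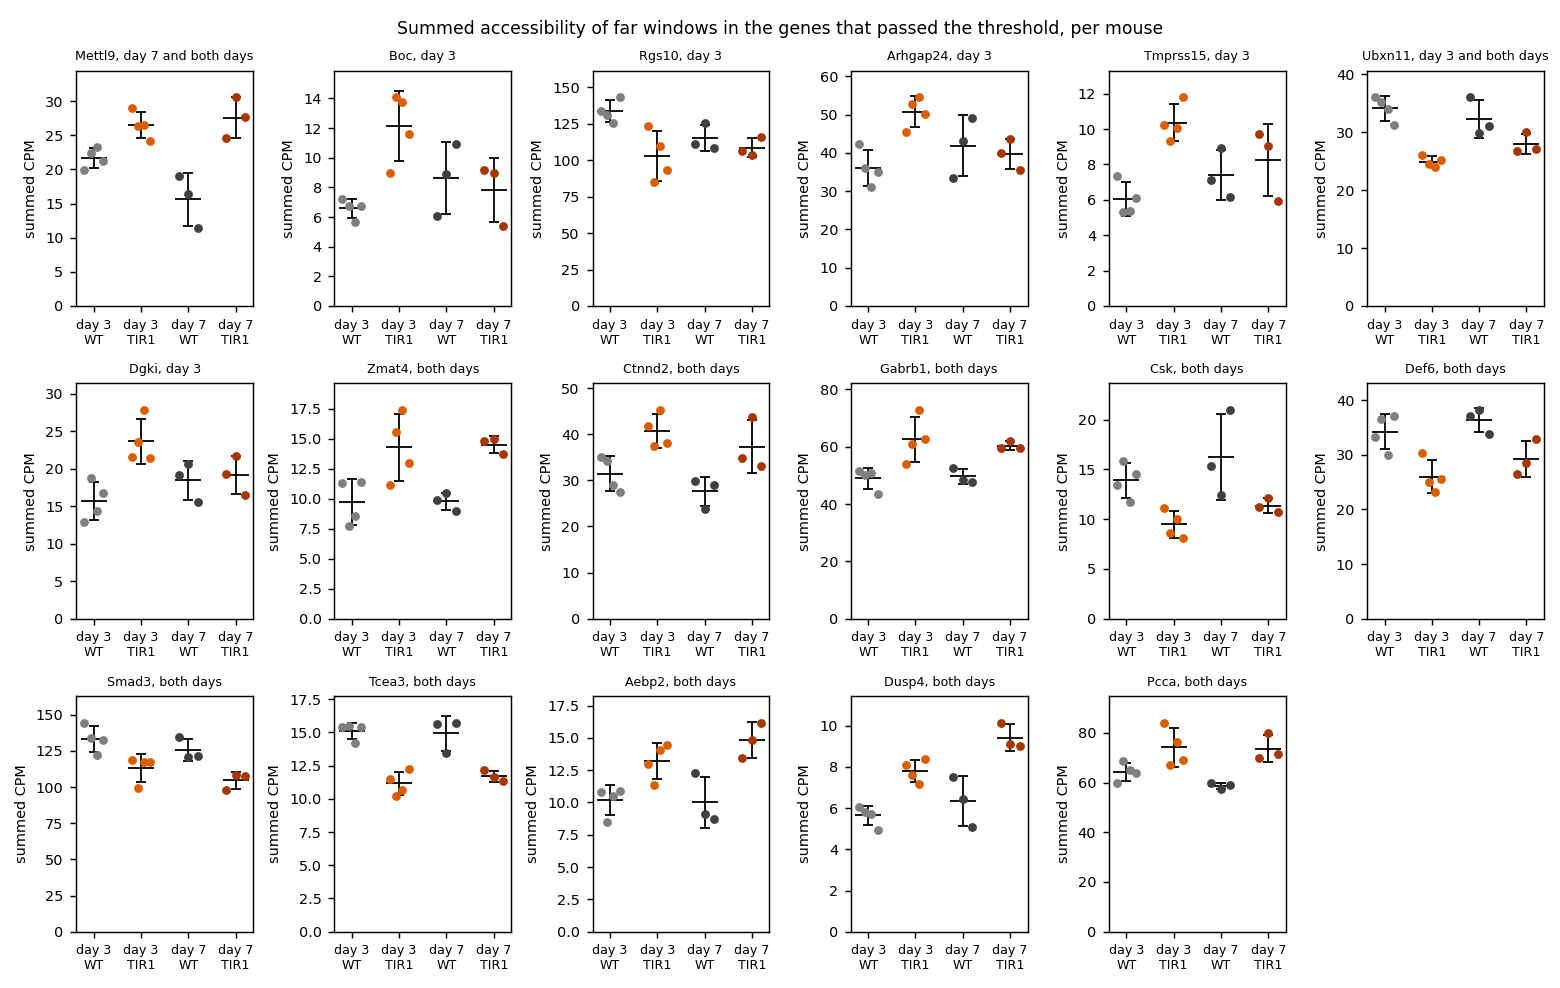
Summed CPM of intragenic far windows per mouse for each gene past the threshold in any of the 3 comparisons. Points are mice by genotype and day, and lines with bars are mean ± SD (n = 4 on day 3, n = 3 on day 7). Boc, Arhgap24, Tmprss15 and Dgki differ on day 3 and overlap on day 7, while Mettl9, Smad3, Tcea3 and Gabrb1 show no overlap between genotypes over both days.

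Gene length moved with the day 3 difference as distance did. The median log2 fold change of sums on day 3 was -0.04 in genes under 50 kb (2426 genes), -0.01 at 50 to 100 kb (1724), 0.01 at 100 to 200 kb (1097), 0.08 at 200 to 500 kb (595) and 0.24 from 500 kb upward (187). On day 7 these medians lay between -0.02 and 0.01. Of the 7 genes that rose over both days, 4 were longer than 200 kb and 2 were shorter than 50 kb. Of the 5 that fell, 4 were shorter than 50 kb. Among all 6029 genes, 2426 were under 50 kb, 595 had 200 to 500 kb and 187 had 500 kb or more. The part of length in the calls was not tested. Scaling to total counts in place of TMM left 11 genes past the threshold on day 3, all of them higher, so that the fall of Rgs10 and Ubxn11 on day 3 did not pass under that scaling.

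Calls in the gene lists were few. Over both days only the chromatin list held windows past the threshold, 1 higher (Kat6b) and 1 lower (Cbx7) of 786, where 0.0112% of all windows passed, and on day 7 and day 3 no list held any. No gene of any list passed as a sum. Genes discussed by the study as lower after degradation, among them Foxp3, Il2ra and Il2rb, had 53 windows in 3 of 7 genes, and they are no independent evidence of direction because the study chose them in this mouse model. Their median log2 fold change was -0.17 on day 7 and -0.20 on day 3, and -0.12 with the days combined, against -0.01, 0.03 and 0.02 over all intragenic windows. An unadjusted p under 0.05 was reached by 8 of the 53 (15.1%) on day 7, against 5.84% of all intragenic windows. On day 3 these were 4 (7.55%, against 6.90%), and with the days combined 7 (13.2%, against 6.52%).

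The most accessible intragenic far window of Foxp3 lies at chrX:7595098-7595299, 10222 bp from the nearest start, that of Ccdc22. It had 7.62, 6.35, 7.31 and 8.97 CPM in R26WT mice on day 3 and 5.94, 8.49 and 6.30 on day 7. R26TIR1(F74G) mice had 7.01, 6.33, 4.32 and 5.07 on day 3 and 5.29, 5.19 and 6.48 on day 7. The genotypes overlapped, and the log2 difference over both days was -0.38 (SE 0.12, adjusted p = 0.497). In Il2rb, the beta chain of the IL-2 receptor, the window at chr15:78495042-78495243 had 19.6, 19.2, 21.0 and 23.9 CPM in R26WT mice on day 3 and 20.9, 22.4 and 18.3 on day 7, and 12.8, 17.8, 15.4 and 17.1 in R26TIR1(F74G) mice on day 3 and 16.1, 18.0 and 18.0 on day 7. No R26TIR1(F74G) mouse reached any R26WT mouse. The log2 difference was nevertheless -0.33 (SE 0.09) with an adjusted p of 0.385, and it passed under 1 of 23 alternatives.

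Il2ra had its most accessible intragenic far window at chr2:11653432-11653633, with 15.6 to 26.6 CPM in the R26TIR1(F74G) mice and 18.8 to 28.7 in the R26WT mice and a log2 difference of -0.21 (adjusted p = 0.733). As sums over their windows, Foxp3 had a log2 difference of -0.23 (adjusted p = 0.431), Il2ra of -0.11 (0.457, also adjusted) and Il2rb of -0.15 (adjusted p = 0.476) over both days. Of the genes discussed as higher after degradation, only Tcf7 held intragenic far windows (23), with a median log2 fold change of 0.17 on day 7 and 0.03 on day 3 and a sum at 0.05 (adjusted p = 0.854).

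The large T cell lists had window medians near 0 over both days. Over both days the median log2 fold change was -0.01 for transcription factor genes, -0.01 for receptor genes, 0.00 for T cell receptor signalling genes, -0.01 for adhesion genes and 0.01 for cAMP and phosphoinositide genes. As sums per gene on day 3 the medians were -0.08, -0.04, -0.06, -0.07 and -0.11 in the same order, against -0.003 over all genes. Chromatin regulators had -0.08 as well, B cell genes 0.14 and myeloid genes -0.01. Of the receptor windows, 32 (9.91%) had an unadjusted p under 0.05 in edgeR over both days, against 6.52% of all intragenic windows. In the other large T cell lists this share lay between 5.57% and 8.30%. The receptor list was not the highest, since the share was 15.4% in the myeloid list and 10.1% in the neuronal list. It was 8.70% in the B cell list, 7.63% in the chromatin list and 4.35% in Tcf7, the gene discussed as higher after degradation. On day 7 it was 10.0% for receptor genes, against 5.84%, and the cause was not tested. The most accessible windows of these lists and of the chromatin list were in Pde4d (53.8 CPM, log2 difference over both days -0.05), Ets1 (38.0, -0.09), a T cell factor of the ETS family, and the chromatin remodelling gene Arid1b (30.6, -0.13). Next to these, Chd7 (28.0, -0.08), Cblb (26.8, 0.11), a ubiquitin ligase gene that dampens T cell receptor signalling, and Ikzf1 (26.3, -0.13) stood at similar levels. Further windows at over 20 CPM lay in Pde3b (26.3, -0.10), Pde4b (26.0, -0.13), Tnfrsf1b (26.0, -0.13), Lef1 (26.0, -0.32), Prkch (25.9, -0.08), Elmo1 (24.6, -0.07), Fyb (23.5, -0.05), Rora (23.4, -0.29), Dnmt3a (22.4, -0.19), Kdm6b (22.4, -0.26) and Dock8 (21.6, -0.24). Over all 350 intragenic windows of 20 CPM or more the median was -0.09, so that values below 0 were common at this level. None of the windows named here passed. The smallest adjusted p was 0.385, for the Il2rb window above and for a window in Prkcq (19.8 CPM, -0.36), the gene of protein kinase C theta. The Dock10 window (19.3, -0.02) was the fourth of the adhesion list.

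Windows in genes of other cell types were few, and their median level was 1.44 CPM in the B cell list and 1.53 in the myeloid list, beside 1.44 CPM over all intragenic windows. The highest were in Ebf1 (10.5 CPM, log2 difference -0.17) and Bank1 (7.07, 0.07) among B cell genes and in Mef2c (8.09, 0.20) and Spi1 (6.44, -0.28) among myeloid genes, and Cd8b1 reached 1.25 CPM (-0.14). Median log2 fold changes were 0.15 for the B cell list and 0.23 for the myeloid list on day 3, and -0.04 and 0.00 on day 7. On day 3, 7 of 38 myeloid windows tested (18.4%) had an unadjusted p under 0.05, against 6.90% of all intragenic windows. On day 7 it was 1 of 39 (2.56%, against 5.84%).

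The 278 windows in long neuronal genes had a median log2 fold change of 0.33 on day 3 and -0.05 on day 7, and of 0.18 with the days combined. Of these, 39 of 255 tested (15.3%) had an unadjusted p under 0.05 on day 3, against 6.90% of all intragenic windows. On day 7 it was 6 of 246 (2.44%, against 5.84%). Per mouse the median level was 1.13, 0.860, 0.888 and 0.738 CPM in R26WT and 1.08, 1.02, 1.27 and 1.13 in R26TIR1(F74G) mice on day 3, and 0.840, 0.872 and 1.05 in R26WT and 0.909, 0.835 and 0.759 in R26TIR1(F74G) mice on day 7. The genotypes overlapped on both days. With the share of counts near start sites as a term the day 3 median was 0.21, and leaving out each mouse moved it between 0.29 and 0.47. Nrxn3 held the most accessible window of these genes (20.3 CPM, log2 difference 0.18), followed by Lsamp (11.5, 0.07), and Csmd3 stood lower (2.67, 0.44). None of the 3 passed.

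Whether the difference between genotypes changed with day was asked by the interaction of day and genotype. Among all intragenic windows 0 passed in edgeR (0.0% of all windows tested) and 0 in DESeq2, with 4089 (5.65%) and 2846 at an unadjusted p under 0.05. After Ptk2b, the smallest p-values were in Hcrtr2 (-2.15, SE 0.45, adjusted p = 0.335) and Cyb5b (1.42, SE 0.32, adjusted p = 0.476). As sums per gene 0 of 6029 passed in edgeR (0.0%), with 474 (7.86%) at an unadjusted p under 0.05, and 1 passed in DESeq2. Among the lowest p-values were those of Klf12 (-0.68, adjusted p = 0.356) and Nbea (-0.51, adjusted p = 0.356). Leaving out R26WT replicate 1 of day 7 gave 6 windows and 2 genes, and leaving out any other mouse gave 0 of both.

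Between the days within a genotype no intragenic window passed. In R26WT mice 0 of 69579 passed (all windows 0.003%), with 3839 (5.52%) at an unadjusted p under 0.05, and DESeq2 called 0, with 1840. In R26TIR1(F74G) mice 0 of 71743 passed (all windows 0.0%), with 4344 (6.05%) at an unadjusted p under 0.05, and DESeq2 called 0, with 2389. The smallest p-values belonged to windows in Gsk3b (-1.10, SE 0.22, adjusted p = 0.0896), Trio (-1.10) and Ttll5 (-0.73, adjusted p = 0.195) in R26WT mice. In R26TIR1(F74G) mice they belonged to Slc4a10 (-1.70), Tex14 (0.77) and Erc2 (-2.36), each with an adjusted p of 0.0817. Single mice decided these numbers, since without R26WT replicate 1 of day 7 the count in R26WT mice was 29, and without R26TIR1(F74G) replicate 2 of day 3 the count in R26TIR1(F74G) mice was 82.

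The most accessible intragenic windows of all lay in Mpp7, a scaffold gene of cell polarity, where 3 overlapping windows had 69.5, 64.8 and 62.9 CPM. The first of them had 66.6, 72.8, 82.4 and 46.3 CPM in R26WT mice on day 3 and 87.1, 58.8 and 89.5 on day 7, and 155, 50.6, 63.4 and 52.1 in R26TIR1(F74G) mice on day 3 and 43.4, 60.0 and 44.2 on day 7. R26TIR1(F74G) replicate 1 of day 3, the shallowest library, stood far above all others, and on day 7 the genotypes overlapped by 1 mouse each. The day 7 log2 difference of the 3 windows was between -0.70 and -0.67, with adjusted p-values of 0.0904, 0.101 and 0.0555. Stard13 (64.2 CPM), Arhgap26 (59.2), Uggt2 (57.8), Patj (54.8), Pde4d (53.8) and Ssc4d (52.7) were also among the 10 highest. The log2 differences of the 9 windows given here lay over both days between -0.18 and -0.04 and none passed. The median over all 350 intragenic windows of 20 CPM or more was -0.09. The 10 genes with most windows behaved alike as sums, from -0.07 (Foxp1) to 0.11 (Fhit) over both days, and none of them passed in any of the 3 comparisons. The 69 windows at noncoding start sites held no call either, with 0 of 68 on day 7 (7 at an unadjusted p under 0.05), 0 of 69 on day 3 (4) and 0 of 69 over both days (6). Over all intragenic windows 5.84%, 6.90% and 6.52% had an unadjusted p under 0.05, in the same order.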

How the data were processed

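Per the paper's methods, bowtie2 served for alignment and MACS2 for peak calling, peaks shared by replicates were merged, and featureCounts gave the reads at each summit. The authors deposited these as raw counts for each library, and the submitters' processing notes name mm10. How duplicates and the Tn5 offset were treated is fixed in the counts. PCR reads without molecular identifiers are not independent molecules.

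Window positions are given as in the table, from which each sequence starts 1 base later. Gene bodies and 32750 start sites of 21631 protein-coding genes came from RefSeq (GRCm38), with strand from RefSeq promoter entries (17274 genes) or a GENCODE annotation by symbol (3913 genes), and both ends were taken as starts for 444 genes without strand. Exons were not used here, and single values of some genes are not reported here.

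Counts were tested with edgeR 4.0.16 (quasi-likelihood, TMM, windows averaging 10 or more counts in the fitted samples, Benjamini-Hochberg over all windows, threshold 0.05), and DESeq2 1.42.0 and limma 3.58.1 ran in R 4.3.3. Each standard error is the absolute fold change divided by the square root of its F, and CPM uses TMM factors over 14 libraries (pseudocount 0.5 for SDs on the log2 scale). Shares were compared by exact two-sided permutation tests within day. Other steps used Python 3.11.15. The scripts were tested on simulated counts. Named are, per comparison, up to 5 windows past the threshold with the largest change in each direction (or the 3 with the smallest p), per gene list the 4 windows of highest CPM, the 10 highest windows and the 10 genes with most windows. The members and lists were chosen with earlier results of these data known. Sums per gene, the share near start sites as a term, fits without the 2 shallowest libraries and medians under other settings were added after seeing the data.

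The alternatives were DESeq2, scaling to total counts, a mean count of at least 50, a fit of all libraries, the replicate number or the prefix of the mouse name as a block, a threshold of 0.1, a distance of 20 kb, and each mouse left out. Replicate numbers are shared between groups, but same-numbered mice did not deviate together (correlations between -0.06 and 0.08), so they were not treated as pairs.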

Additional observations from a re-analysis of the deposited data

Results flagged for a closer look

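Within groups of 4 mice, 13 of 168 groups of values (a window or sum in 1 day 3 group) had a highest or lowest mouse standing apart by Dixon's criterion, where chance gives about 1 in 20. Among R26TIR1(F74G) mice of day 3, replicate 1 stood apart in Zfhx3 (3.24 CPM), Erc2 (3.60) and Chd7 (34.9). The Mpp7 windows described above, in which this mouse also stood far above the others, were not among the groups looked at. In the same group replicate 3 did so in Arhgap17 (6.26 CPM) and in the Arhgef6 window at chrX:57253411-57253612 (6.41), and replicate 2 in the Smad3 sum (99.0 CPM). Among R26WT mice of day 3, replicate 1 stood apart in Bank1 (4.07 CPM), and replicate 2 in Cd8b1 (2.25) and the Aebp2 sum (8.47). Replicate 3 did so in Cyb5b (4.71 CPM), Ttll5 (10.5) and the Tcea3 sum (14.2), and replicate 4 in the Gabrb1 sum (43.5). For Arhgap17 and Arhgef6 the mouse apart lay farther from the R26WT mice than the rest of its group.

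In 3 of the named features the genotypes did not overlap on either day and stood in opposite order on day 3 and day 7. Only named features were looked at, and no share over all windows was computed. Hcrtr2 and Klf12 had been named for their small interaction p-values, so that their opposite order is no separate finding. The Hcrtr2 window had a log2 difference of -0.68 on day 7 and 1.46 on day 3, with an adjusted p of 0.335 for the interaction in edgeR. The Lsamp window had -0.32 and 0.37 (adjusted p of the interaction 0.596), and the Klf12 sum -0.35 and 0.33 (adjusted p of the interaction 0.356).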

How the results depend on the processing

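Counts of calls depended on the processing, and the cause was not tested. For single windows on day 7 (3 calls), DESeq2 gave 0, total counts 6, a mean count of at least 50 gave 18, all libraries in one fit 0 (3716 at an unadjusted p under 0.05), the prefix of the mouse name 0 (3162), the share near start sites as a term 7, a threshold of 0.1 gave 9, a distance over 20 kb gave 1, and leaving out each mouse 0 to 9. On day 3 (0 calls) the share term gave 5 and leaving out each mouse 0 to 5. Over both days (10 calls) DESeq2 gave 36, a mean count of at least 50 gave 29, the prefix 4, the share term 38, fits without the 2 shallowest libraries 36, a threshold of 0.1 gave 19, a distance over 20 kb gave 5, and leaving out each mouse 1 to 17. Interaction and day effects (0 calls each) ranged over 0 to 6, 0 to 29 (R26WT) and 0 to 82 (R26TIR1(F74G)) without each mouse, and a threshold of 0.1 gave 1 in R26WT and 5 in R26TIR1(F74G) mice between days.

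For sums per gene, DESeq2 gave 4 on day 7 (1 call), 59 on day 3 (6 calls), 63 over both days (12 calls) and 1 for the interaction (0 calls). Total counts gave 0 and 11, a mean count of at least 50 gave 0 and 19, the prefix 0 and 3, and a threshold of 0.1 gave 2 and 62, day 7 first, the last with 32 over both days. The share term gave 2 on day 3, and leaving out the 2 shallowest libraries gave 39 over both days. Leaving out each mouse gave 0 to 3, 0 to 68, 0 to 10 and 0 to 2 in the same order.

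With the replicate number as a block, calls were 13 windows for day 7, 2 for day 3 and 5 for both days, and 9, 33 and 6 genes in the same order, with 1 gene for the interaction. The numbers did not pair the mice.

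Without each mouse the difference in share ranged from -0.52 to 0.23 percentage points on day 7, 0.37 to 0.99 on day 3 and 0.088 to 0.51 over both days. Between days it ranged from -0.25 to 0.50 in R26WT mice, -1.01 to -0.39 in R26TIR1(F74G) mice and -0.49 to -0.060 over both. Log2 differences over both days changed sign in some windows far from the threshold. Without each mouse they ranged from -0.080 to 0.024 in Dock10, -0.103 to 0.0089 in Fyb, -0.0125 to 0.116 in Bank1, -0.474 to 0.0715 in Cd8b1 and -0.003 to 0.116 in Lsamp. Dock10 was at 0.0035 with total counts and 0.005 at a mean count of at least 50, Cd8b1 at 0.0174 with the prefix, and the Tcf7 sum at -0.0069 without the 2 shallowest libraries. Windows of 1 to 2 CPM have a median SD of 0.322 on the log2 scale within groups, which limits what could pass.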
